A study of Mus musculus with 12 samples.

Results

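The proteasome subunit genes described here are the protein-coding genes whose symbol is Psma, Psmb, Psmc or Psmd followed by a number, without the interferon-inducible Psmb8, Psmb9 and Psmb10. Of the genes counted, 36 matched, and 34 of them had 10 or more counts in 3 or more of the 12 libraries, out of 30285 gene IDs with at least 1 count. The 34 members were 14 genes of the core particle (7 of the alpha ring and 7 of the beta ring), 17 of the cap (6 base ATPases, 3 other base subunits and 8 lid subunits) and 3 cap assembly chaperones (Psmd5, Psmd9 and Psmd10). The other 2 were Psma8, an alpha subunit best known from the testis, and Psmb11, a catalytic subunit best known from the thymus. Psma8 had no count at 0 h and 1 to 9 counts in each 48 h library, and Psmb11 had at most 5 counts in any library.

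The 26S proteasome degrades proteins that carry ubiquitin chains. Its core is a barrel of stacked rings, with alpha rings outside that gate the entrance and beta rings inside that carry the active sites, while the cap binds ubiquitin, removes it and feeds the unfolded protein into the barrel. Lymphocytes also express inducible beta subunits that replace the standard catalytic ones and change which peptides are cut for presentation on MHC class I. Dividing T cells make and turn over much protein, and many subunit genes share control by the transcription factor NFE2L1.

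RNA was sequenced from naive CD8+ T cells of mouse spleen with the genotype Senp1 WT or Senp1 CKO (a conditional knockout, as CKO is commonly read). The gene Senp1 makes a protease that detaches the small modifier SUMO from proteins. The cells were taken unstimulated (0 h) or after 48 h with antibodies to CD3 (5 µg/ml) and to CD28 (1 µg/ml), which engage the T-cell receptor complex and its costimulatory receptor, and each of the 4 groups had 3 libraries. The labels give no strain, age, recombinase promoter or deleted exons, and they leave unsaid whether replicates were separate animals, so the p-values rest on a spread between libraries that may be technical. Library totals ran from 15900529 to 22427151 counts.

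The defining markers Cd8a, Cd8b1 and Cd3e were detected in every library, with mean levels in WT of 939 ± 32.7, 773 ± 53.1 and 403 ± 30.4 CPM at 0 h (SD, n = 3; CPM are counts scaled to a common total with TMM factors). Senp1 was measured at 83.9, 85.4 and 77.9 CPM in WT and at 56.5, 59.8 and 54.6 CPM in CKO at 0 h, and at 150.3, 171 and 164 CPM in WT and 70.0, 74.5 and 66.3 CPM in CKO at 48 h. It was lower in CKO at both times with no overlap, with log2 differences of -0.53 ± 0.07 and -1.20 ± 0.07 (SE; edgeR adjusted p = 6.26e-05 and 5.43e-10), and its transcript was still counted in every CKO library.

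All 34 members rose with stimulation in both genotypes. Among all 15935 genes tested, 38.7% were called higher in WT, 38.5% in CKO and 35.5% in both, at an edgeR adjusted p under 0.05. The median log2 change of the members was 1.26 in WT and 1.22 in CKO, against -0.03 and -0.04 over all genes tested, and the edgeR adjusted p was at most 5.86e-06 in WT and 1.02e-05 in CKO. For each member every 48 h library lay above every 0 h library of its genotype, which held for 39.6% of all genes in WT and 40.1% in CKO. The members together took 0.236% to 0.264% of a library's counts at 0 h and 0.571% to 0.626% at 48 h. In bulk RNA, a change in the number of cells of one type and a change in RNA per cell cannot be told apart, and CPM give each gene as a share of the library.

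**Figure D1:**
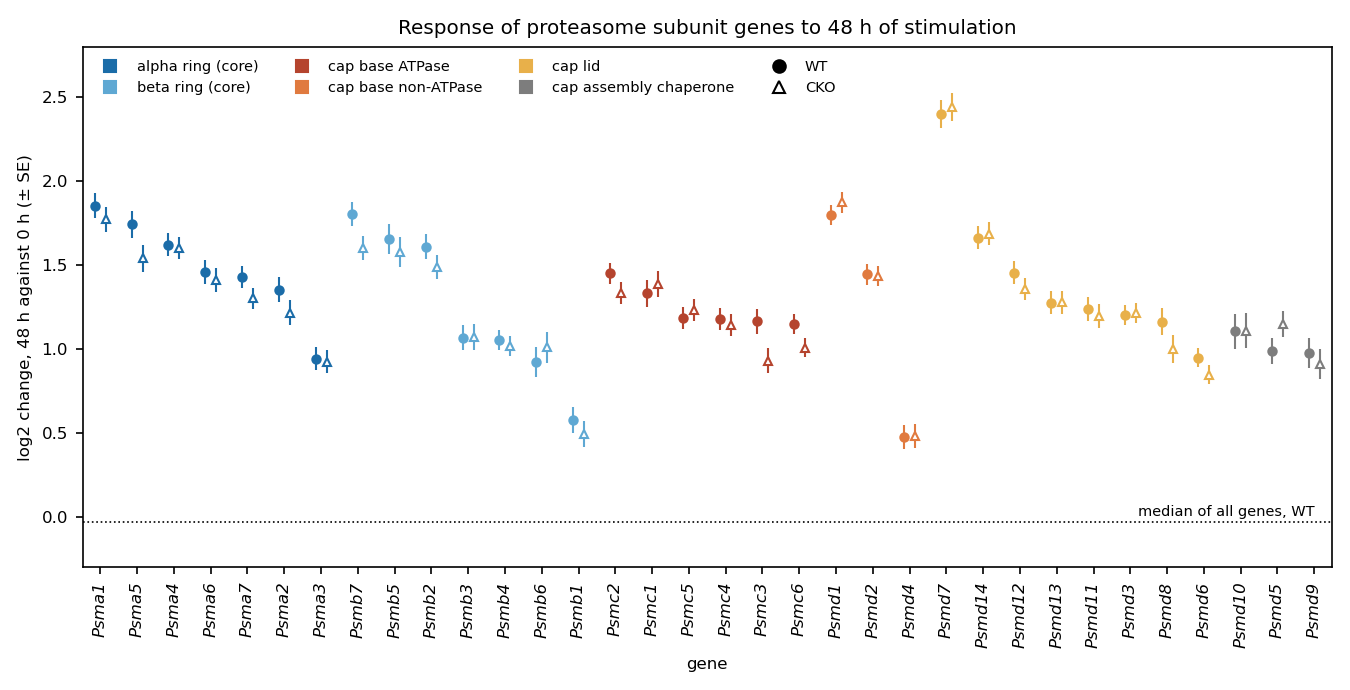
Log2 change from 0 h to 48 h (y axis) of the 34 subunit genes (x axis), with the standard error as bars, circles for WT, triangles for CKO and colours for the role of each gene. All points lie above the dotted median of all genes, from 0.48 for Psmd4 to 2.44 for Psmd7.

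Most markers of other cell types fell over the same interval. Of all 15935 genes tested, 6237 were called lower in WT and 6246 in CKO, and 6172 and 6131 were called higher. The 10 B-cell markers summed to 364.9 to 705.2 CPM in WT and 240.9 to 313.4 CPM in CKO at 0 h, and to 37.3 to 74.6 and 47.3 to 76.5 CPM at 48 h, and 10 of 10 in WT and 9 of 10 in CKO were called lower. The 6 natural killer markers summed to 83.3 to 161.1 CPM at 0 h and 5.67 to 8.85 CPM at 48 h, and all 6 were called lower in both genotypes. The 10 myeloid markers summed to 41.5 to 84.1 CPM at 0 h and 4.10 to 10.5 CPM at 48 h (9 called lower in WT and 10 in CKO), with S100a9 and Csf3r at 0 in WT and S100a8 and S100a9 at 0 in CKO at 48 h. The 8 erythroid and platelet markers summed to 11.0 to 36.9 CPM at 0 h and 0.136 to 0.728 CPM at 48 h, where 4 of the 8 were at 0 in each genotype, and of the 6 tested 6 were called lower in WT and 5 in CKO. The 4 markers of CD4 and regulatory T cells summed to 73.9 to 105.5 CPM at 0 h and 56.7 to 96.8 CPM at 48 h, and 1 was called lower in WT and 2 in CKO. The 6 CD8 T-cell markers themselves also fell, from 3061 to 3357 CPM at 0 h to 1293 to 1587 CPM at 48 h. Of 8 stress and immediate early genes, 1 was higher and 2 were lower in WT, and 2 were higher and 3 lower in CKO, and their sum went from 1240 to 1564 CPM in WT and 1432 to 1909 CPM in CKO at 0 h to 534 to 557 and 532 to 585 CPM at 48 h. The part of these shifts in the members' rise was not tested.

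Promoter sequence was available from RefSeq (GRCm38.p6) for 28 of the 34 members, as windows from 250 bases before to 50 bases after the start site, and not for Psmb1, Psmb2, Psmb7, Psmc3, Psmd3 and Psmd7. An antioxidant response element, the kind of site that NFE2L1 binds, was searched as TGACNNNGC on both strands and matched in 5 of 28 members (Psmb5, Psmb6, Psmc6, Psmd9 and Psmd12), 17.9%, against 14.0% of 27025 genes with a window. The CCAAT box, searched as CCAAT on both strands, matched in 11 of 28 members (39.3%) against 41.1% of genes, and the E-box CACGTG in 2 of 28 (7.14%) against 8.09%, and no match of one motif overlapped that of another in the members. The 5 members with a TGACNNNGC match had a median WT log2 change of 1.15 and a range of 0.92 to 1.65. The 23 members without one had a median of 1.28 and a range of 0.48 to 1.85. Whether a motif match goes with the size of the rise was not tested. A match of letters is a description, not a binding site. The 130 bases just before the start site are shown for the 2 catalytic subunits and the chaperone whose TGACNNNGC match lies there, in capitals, at chr14:54617996-54618125 on the minus strand, chr11:70525227-70525356 on the plus strand and chr5:123228060-123228189 on the plus strand.
Psmb5: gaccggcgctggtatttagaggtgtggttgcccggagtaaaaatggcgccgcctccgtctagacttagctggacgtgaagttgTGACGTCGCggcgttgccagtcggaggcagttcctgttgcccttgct
Psmb6: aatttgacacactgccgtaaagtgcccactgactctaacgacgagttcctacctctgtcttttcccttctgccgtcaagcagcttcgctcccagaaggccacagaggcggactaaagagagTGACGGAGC
Psmd9: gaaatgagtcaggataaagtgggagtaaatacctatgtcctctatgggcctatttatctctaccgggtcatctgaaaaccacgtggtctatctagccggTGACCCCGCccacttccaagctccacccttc
The same stretch is shown for Psma1 and Psmd4, members with a large and a small rise, at chr7:114276117-114276246 on the minus strand and chr3:95042615-95042744 on the minus strand, where capitals mark CCAAT or its reverse complement ATTGG.
Psma1: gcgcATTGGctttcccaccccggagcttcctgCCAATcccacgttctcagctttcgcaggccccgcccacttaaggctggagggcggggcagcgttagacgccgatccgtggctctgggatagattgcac
Psmd4: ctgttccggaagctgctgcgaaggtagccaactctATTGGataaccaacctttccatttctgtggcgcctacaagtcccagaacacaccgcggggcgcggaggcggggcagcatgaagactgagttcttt
Both stretches hold a CCAAT match, and the WT log2 changes of the genes were 1.85 and 0.48.

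The 7 alpha ring genes had a median log2 change of 1.46 in WT and 1.41 in CKO. Psma1 rose most among them in WT, from 70.4, 67.6 and 63.3 CPM at 0 h to 267, 228 and 233 CPM at 48 h. In CKO it went from 63.1, 73.1 and 71.5 CPM to 231, 234 and 245 CPM, and no 48 h library of either genotype came near the 0 h range. The log2 changes were 1.85 ± 0.07 in WT and 1.77 ± 0.07 in CKO (SE; edgeR adjusted p = 1.19e-14 and 2.4e-14). Psma3 rose least, from 81.7, 75.2 and 81.2 CPM to 168, 146 and 142 CPM in WT and from 72.5, 76.5 and 76.8 CPM to 148, 135 and 145 CPM in CKO. The gene's log2 changes were 0.94 ± 0.07 and 0.92 ± 0.07 (edgeR adjusted p = 1.94e-10 and 2.9e-10). The other alpha genes lay between, with WT log2 changes of 1.74 for Psma5, 1.62 for Psma4, 1.46 for Psma6, 1.43 for Psma7 and 1.35 for Psma2. Per kilobase of principal transcript Psma7 was the most abundant of the 34 in each group, with mean levels of 102 and 273 CPM per kb in WT at 0 h and 48 h. That rank rests on a principal length of 914 bases, against 3071 bases over all annotated exons.

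The 7 beta ring genes were less uniform, with a median log2 change of 1.07 in both genotypes and a range in WT from 0.58 to 1.81. The 3 standard catalytic subunits are Psmb5, which cuts after hydrophobic residues, Psmb6, which cuts after acidic ones, and Psmb7, which cuts after basic ones. Psmb5 (ENSMUSG00000022193) was measured at 31.3, 26.1 and 28.1 CPM in WT at 0 h and at 100.1, 77.7 and 91.3 CPM at 48 h. In CKO the values were 28.7, 28.5 and 27.8 CPM and 80.2, 86.6 and 86.9 CPM. The 0 h and 48 h libraries did not overlap, and the log2 changes were 1.65 ± 0.09 in WT and 1.58 ± 0.09 in CKO, each with its SE (edgeR adjusted p = 1.41e-12 and 3.45e-12). Psmb7 (ENSMUSG00000026750) went from 39.1, 41.3 and 40.4 CPM to 152, 133 and 138 CPM in WT and from 42.7, 50.1 and 45.5 CPM to 141, 137 and 142 CPM in CKO. At 0 h its 3 CKO libraries were all above the 3 WT libraries, while at 48 h the genotypes overlapped. On the log2 scale the changes were 1.81 ± 0.07 and 1.60 ± 0.07 (edgeR adjusted p = 1.08e-14 and 6.45e-14).

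Psmb6 (ENSMUSG00000018286) rose less, from 64.6, 55.2 and 71.0 CPM to 133, 115 and 114 CPM in WT and from 53.9, 64.8 and 53.3 CPM to 114, 116 and 116 CPM in CKO. This was a log2 change of 0.92 ± 0.09 in WT and 1.01 ± 0.09 in CKO, each with its SE (edgeR adjusted p = 2.67e-08 and 8.43e-09). Psmb1 (ENSMUSG00000014769), a structural beta subunit without an active site, had the smallest rise of the core. It was at 139, 118 and 137 CPM in WT at 0 h and 223, 183 and 182 CPM at 48 h, and in CKO at 128, 131 and 131 CPM and then 183, 189 and 178 CPM. The 48 h libraries were higher in each case, with log2 changes of 0.58 ± 0.08 and 0.49 ± 0.08 (edgeR adjusted p = 1.29e-06 and 1.02e-05). Per kilobase Psmb1 ranked 6 of 34 in WT at 0 h and 17 at 48 h. Of the other structural beta genes, Psmb2 rose by 1.61 in WT, Psmb3 by 1.07 and Psmb4 by 1.05 on the log2 scale.

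**Figure D2:**
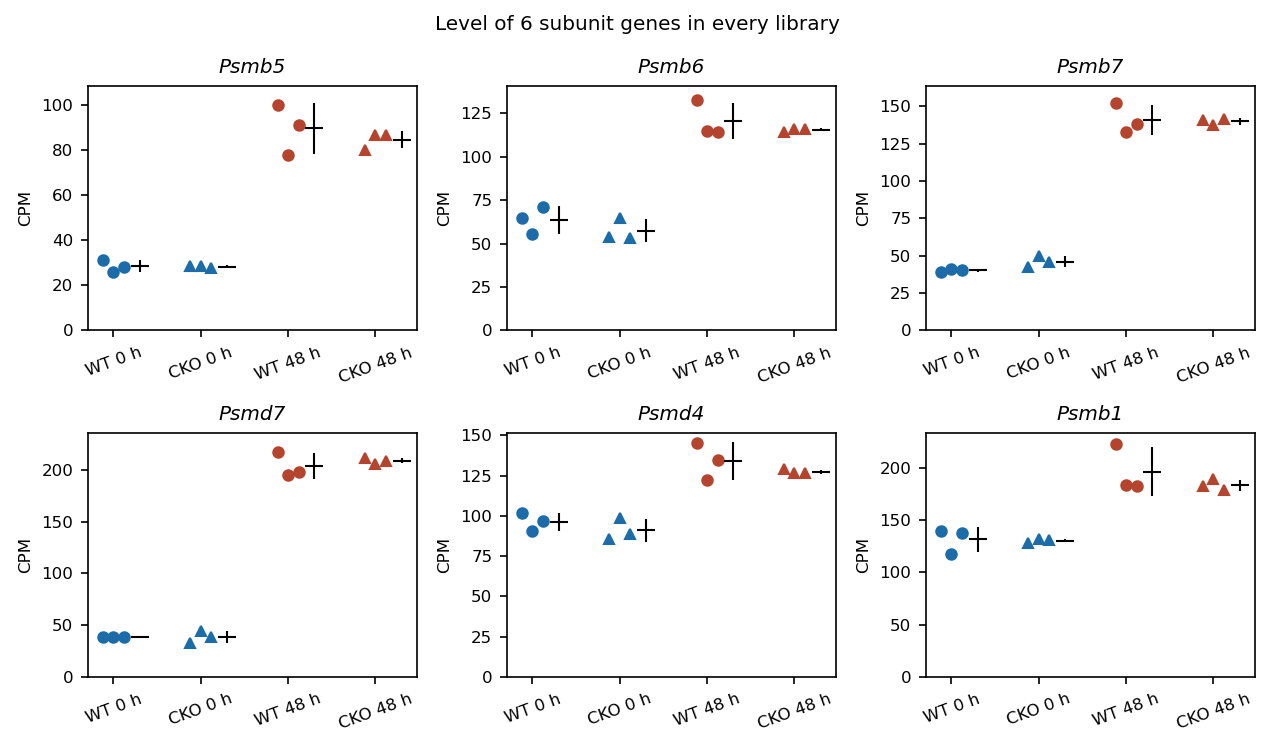
CPM (y axis, from 0) of Psmb5, Psmb6, Psmb7, Psmd7, Psmd4 and Psmb1 in each of the 12 libraries by group (x axis), with the mean and SD of each group of 3 beside the points; circles are WT, triangles CKO, blue 0 h and red 48 h. In all 6 panels the 48 h libraries lie above the 0 h libraries, with the largest step in Psmd7 and the smallest in Psmd4 and Psmb1.

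The 6 base ATPases, which form the ring that unfolds substrates, moved more alike, with WT log2 changes from 1.15 to 1.45 and a SD over the 6 genes of 0.12, against 0.45 over the 7 beta genes. Psmc2 went from 66.5, 62.5 and 61.4 CPM to 183, 172 and 166 CPM in WT and from 65.3, 70.2 and 65.1 CPM to 176, 161 and 169 CPM in CKO. The log2 changes were 1.45 ± 0.06 and 1.33 ± 0.06 (edgeR adjusted p = 5.6e-14 and 2.1e-13). Psmc6, at the low end in WT, went from 103, 103 and 103 CPM to 242, 217 and 229 CPM in WT and from 106, 113 and 108 CPM to 226, 216 and 217 CPM in CKO. The fitted log2 changes were 1.15 ± 0.06 and 1.01 ± 0.06 (edgeR adjusted p = 4.24e-13 and 3.39e-12). Psmc3 had log2 changes of 1.16 ± 0.07 and 0.93 ± 0.07, from 98.7, 87.0 and 91.4 CPM to 220.1, 200.0 and 201 CPM in WT and from 90.7, 111 and 93.8 CPM to 190.2, 185 and 188 CPM in CKO. For the other ATPases the WT and CKO log2 changes were 1.33 and 1.39 for Psmc1, 1.18 and 1.14 for Psmc4, and 1.19 and 1.23 for Psmc5.

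The 3 other base genes held both a large and the smallest rise. Psmd1, a scaffold of the base, went from 74.2, 76.1 and 74.1 CPM to 255, 267 and 259 CPM in WT and from 70.9, 81.1 and 73.8 CPM to 277, 268 and 283 CPM in CKO. Its log2 changes came to 1.80 ± 0.06 and 1.87 ± 0.06 (edgeR adjusted p = 9.2e-16 and 5.66e-16). Psmd2, the other scaffold, rose by 1.44 and 1.43. Psmd4 (ENSMUSG00000005625), a ubiquitin receptor, went from 102, 90.5 and 96.9 CPM to 145, 122 and 135 CPM in WT and from 85.4, 98.9 and 89.0 CPM to 129, 127 and 127 CPM in CKO. The groups did not overlap, but the log2 changes were only 0.48 ± 0.07 and 0.48 ± 0.07 (edgeR adjusted p = 5.86e-06 and 5.49e-06), the smallest of the 34 in both genotypes. In CKO that place is close: without single libraries Psmd4 ran from 0.44 to 0.56 and Psmb1 from 0.48 to 0.51. Per kilobase Psmd4 ranked 7 of 34 in WT at 0 h, at 72.3 CPM per kb, and 22 at 48 h, at 101 CPM per kb.

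Of the 8 lid genes, Psmd7 (ENSMUSG00000039067), the structural partner of the deubiquitinase Psmd14, had the largest rise of all members in both genotypes. It was at 38.6, 38.9 and 38.2 CPM in WT at 0 h and at 218, 195 and 198 CPM at 48 h. In CKO it was at 32.6, 44.3 and 38.3 CPM and then at 211, 206 and 209 CPM, far above every 0 h value. The log2 changes were 2.40 ± 0.08 and 2.44 ± 0.08, or 5.28-fold and 5.44-fold (edgeR adjusted p = 1.48e-15 and 1.3e-15). Per kilobase it ranked 29 of 34 at 0 h and 12 at 48 h in both genotypes. Psmd14, the lid enzyme that removes ubiquitin chains, rose by 1.66 in WT and 1.69 in CKO, from mean levels of 71.8 ± 3.56 and 70.1 ± 5.76 CPM to 227 ± 12.4 and 226 ± 7.03 CPM (SD, n = 3). Psmd6 rose least, from 78.7, 76.4 and 73.2 CPM to 150.1, 146 and 145 CPM in WT and from 77.1, 83.6 and 80.3 CPM to 146, 143 and 145 CPM in CKO. Its log2 changes were 0.95 ± 0.06 and 0.85 ± 0.06 (edgeR adjusted p = 8.29e-12 and 5.25e-11). The WT log2 changes of the remaining lid genes were 1.45 for Psmd12, 1.28 for Psmd13, 1.24 for Psmd11, 1.20 for Psmd3 and 1.16 for Psmd8.

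The 3 chaperones, which help the base assemble and leave the finished particle, were the lowest members per kilobase of principal transcript in every group. In WT they were at 7.14 to 10.9 CPM per kb at 0 h and at 14.0 to 23.5 at 48 h. Psmd10 went from 15.7, 14.9 and 16.3 CPM to 34.9, 33.5 and 32.6 CPM in WT and from 12.5, 16.8 and 16.0 CPM to 31.4, 34.9 and 31.3 CPM in CKO. Psmd9 went from 18.2, 18.1 and 19.3 CPM to 37.5, 32.9 and 38.9 CPM in WT and from 17.5, 19.2 and 19.0 CPM to 35.4, 33.4 and 35.9 CPM in CKO. No 48 h value of either gene fell within its 0 h values. The log2 changes were 1.11 ± 0.10 and 1.11 ± 0.11 for Psmd10, 0.98 ± 0.09 and 0.91 ± 0.09 for Psmd9, and 0.99 ± 0.08 and 1.15 ± 0.08 for Psmd5, in WT and CKO (edgeR adjusted p of at most 1.49e-08).

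Whether core genes rose more than cap genes depended on the measure. The median log2 change was 1.44 for core and 1.24 for cap genes in WT, and 1.36 and 1.23 in CKO. Computed in every library against the WT 0 h mean of each gene, the core median minus the cap median was -0.08 to 0.05 in the 6 libraries at 0 h. It was 0.23, 0.17 and 0.20 in WT and 0.12, 0.16 and 0.11 in CKO at 48 h, so the 48 h libraries lay above all 0 h libraries and the WT above the CKO libraries. Part of the gap between genotypes lies in the baseline, since the mean at 0 h was -0.003 in WT and -0.03 in CKO. When the CPM of the 14 core genes and of the 17 cap genes were summed, the ratio of core to cap was 0.755 to 0.821 at 0 h and 0.735 to 0.812 at 48 h, and the times overlapped. The summed core level was 982.7 to 1094 CPM at 0 h and 2451 to 2824 CPM at 48 h, and that of the cap 1274 to 1445 and 3182 to 3477 CPM. No test was run on these medians and sums, since the members do not vary independently.

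**Figure D3:**
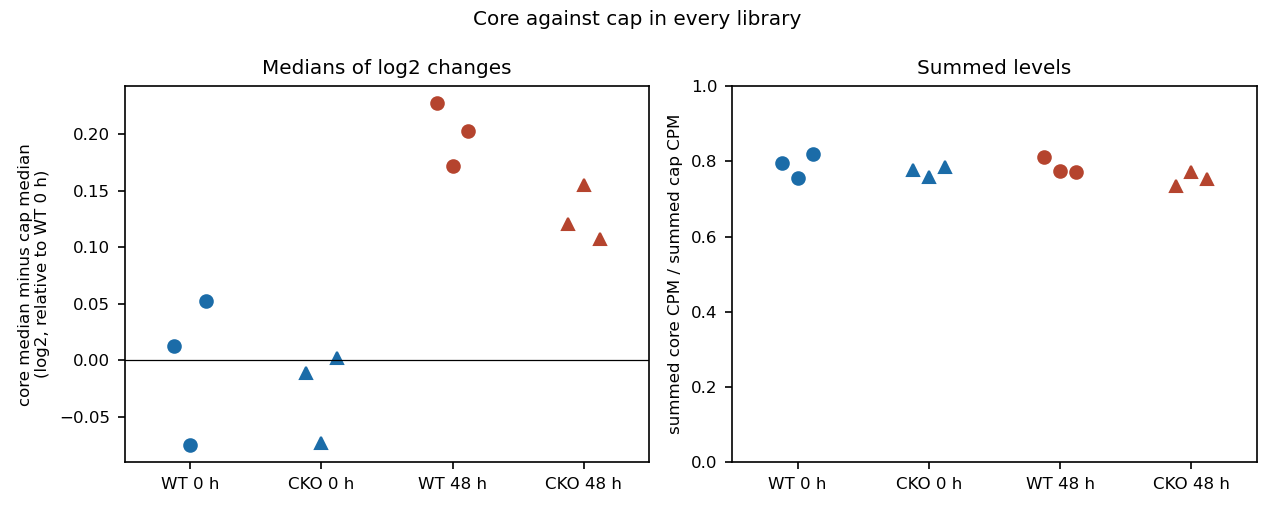
Core against cap genes in each of the 12 libraries by group (x axis): left, median log2 change of the 14 core genes minus that of the 17 cap genes, relative to the WT 0 h mean; right, summed core CPM divided by summed cap CPM. The median difference is above 0.1 in all 48 h libraries and at most 0.05 at 0 h, while the summed ratio overlaps between 0 h and 48 h.

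No member differed between the genotypes at an edgeR adjusted p under 0.05, at 0 h, at 48 h or in the interaction, which asks whether the responses of CKO and WT differ. Among all genes tested, 7.48% were called at 0 h, 4.54% at 48 h and 1.38% in the interaction. At an unadjusted p under 0.05 there was 1 member at 0 h (Psmb7), 2 at 48 h (Psmb2 and Psma7) and 1 in the interaction (Psmc3), and DESeq2 also called 0. The share of all genes under that unadjusted threshold was not computed, so these counts do not set the members apart. The widest 95% intervals over the 34 members ran from -0.36 to 0.36 at 0 h, from -0.35 to 0.26 at 48 h and from -0.47 to 0.41 in the interaction on the log2 scale, which at 0 h corresponds to ratios of CKO to WT between 0.778 and 1.29. These intervals were computed from the SE with 8 residual degrees of freedom.

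Psmb7 had the smallest adjusted p at 0 h, 0.118 by edgeR, with a difference of 0.20 ± 0.07 between CKO and WT. At 48 h that difference was -0.01 ± 0.07, and the interaction was -0.20 ± 0.10 (edgeR adjusted p = 0.401). Psmb2 had the smallest at 48 h. It stood at 152, 129 and 142 CPM in WT and at 126, 127 and 119 CPM in CKO, the CKO libraries lying under the WT ones. The difference was -0.19 ± 0.07 (edgeR adjusted p = 0.16). At 0 h Psmb2 was at 47.0, 44.1 and 47.3 CPM in WT and 41.1, 47.7 and 43.6 CPM in CKO, and those ranges overlapped. Psmc3 had the smallest in the interaction, at -0.23 ± 0.10 (edgeR adjusted p = 0.339). At 0 h its genotypes overlapped, and at 48 h each CKO library was below each WT library.

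The groups did not overlap between genotypes for 2 of 34 members at 0 h (Psmb7 and Psmc6, both higher in CKO), against 24.6% of all genes, and for 6 of 34 at 48 h, against 23.7%. At 48 h those lower in CKO were Psmc3, Psma2, Psma7 and Psmb2, and those higher were Psmd1 and Psmd2. Beyond these, the fitted 48 h differences of 29 of 34 members, and 13 of 14 core genes, were negative, with a median of -0.05 over the members and -0.09 over the core genes. Over all genes tested, 8211 of 15935 were negative, with a median of -0.007. The members' lean towards negative values rested on 1 library, WT 48 h replicate 1, which had the highest member share of counts (0.626%). Without it 19 of 34 members and 9 of 14 core genes were negative, with medians of -0.01 and -0.01. With library totals in place of TMM scaling, 24 of 34 and 12 of 14 were negative. In the interaction 12 of 14 core genes were negative, against 8108 of 15935 genes tested. Without WT 0 h replicate 2 or without WT 48 h replicate 1, 9 of 14 core genes were negative.

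**Figure D4:**
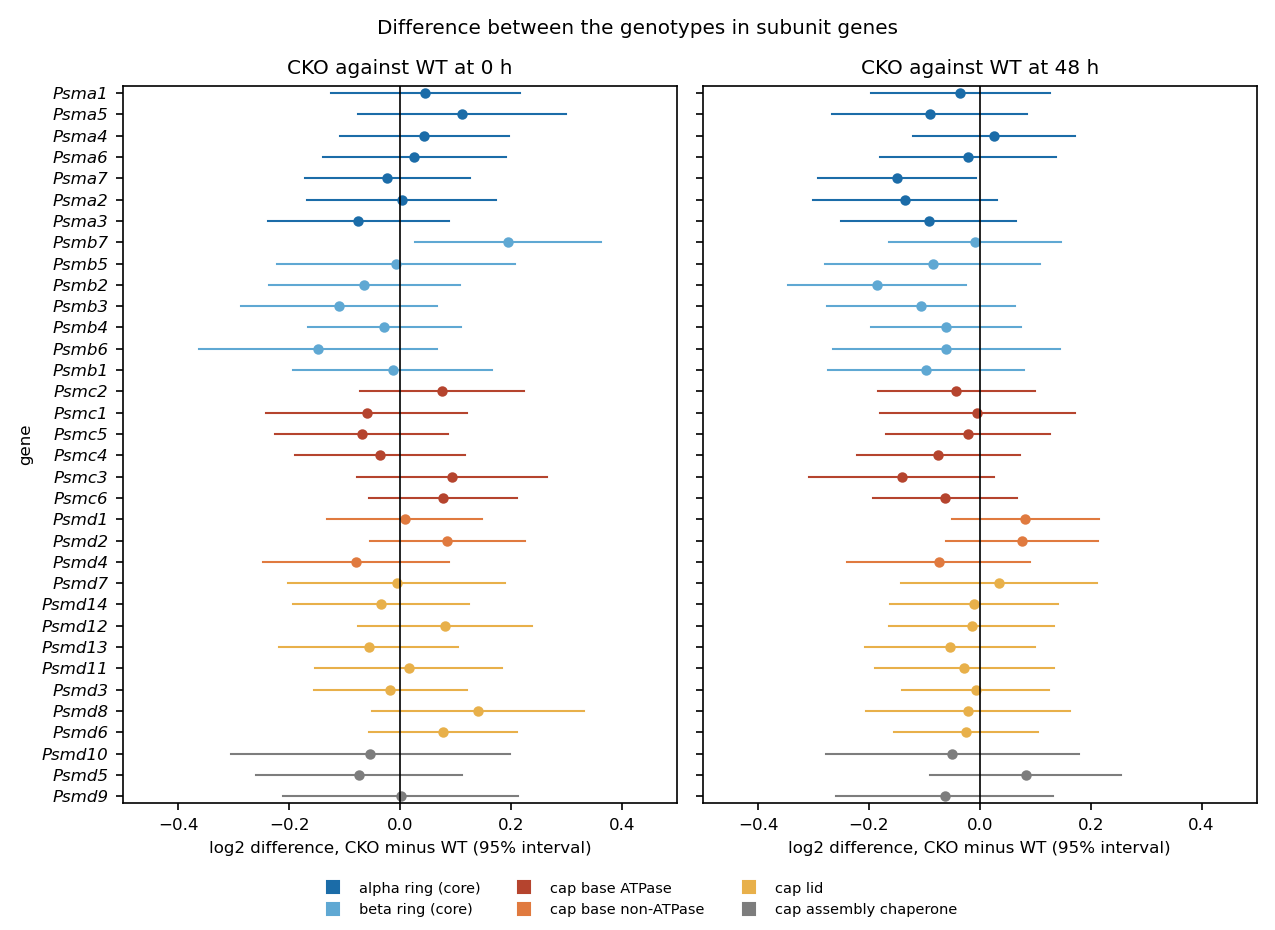
Log2 difference between CKO and WT (x axis) of each of the 34 members (y axis) at 0 h and at 48 h, with 95% intervals as bars and colours for role. Most intervals include 0, and none of the members passed the adjusted threshold; the largest differences were 0.20 for Psmb7 at 0 h and -0.19 for Psmb2 at 48 h.

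The inducible catalytic genes, which the members exclude, did not move together. Psmb8, the inducible counterpart of Psmb5, went from 200.3, 185 and 187 CPM to 439.6, 356 and 363 CPM in WT and from 199, 227 and 196 CPM to 343, 378 and 346 CPM in CKO. Psmb9, the counterpart of Psmb6, went from 69.2, 62.5 and 59.3 CPM to 147, 129.5 and 129 CPM in WT and from 72.6, 73.2 and 72.9 CPM to 124, 134 and 124 CPM in CKO. Both rose without overlap, by 1.02 ± 0.08 and 0.78 ± 0.08 for Psmb8 and 1.08 ± 0.07 and 0.80 ± 0.07 for Psmb9 on the log2 scale in WT and CKO (edgeR adjusted p of at most 3.03e-08). Psmb10, the counterpart of Psmb7, fell, from 63.7, 56.0 and 60.6 CPM to 47.3, 41.3 and 40.5 CPM in WT and from 62.2, 72.1 and 62.9 CPM to 46.4, 50.1 and 45.1 CPM in CKO. The gene's log2 changes were -0.48 ± 0.08 and -0.48 ± 0.08 (edgeR adjusted p = 2.67e-05 and 2.98e-05).

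Ratios of the standard to the inducible gene were formed per principal transcript length in every library. Which gene of a pair is the higher one depends on the lengths used, and ratios by the length of all annotated exons were not computed. The fold between times does not depend on them. Psmb7 to Psmb10 was 0.693, 0.834 and 0.754 in WT at 0 h and 3.64, 3.63 and 3.85 at 48 h. In CKO it was 0.775, 0.786 and 0.817 and then 3.43, 3.10 and 3.55, so the standard gene went from the lower to the higher of the pair in both genotypes. The ratio rose 4.89-fold in WT and 4.23-fold in CKO. Psmb5 to Psmb8 went from a mean of 0.270 to 0.420 in WT and from 0.248 to 0.431 in CKO, without overlap, and the inducible gene stayed the higher one. Psmb6 to Psmb9 was 1.69 and 1.51 in WT and 1.33 and 1.54 in CKO at 0 h and 48 h, and overlapped between times in both genotypes. With 3 libraries against 3 the two-sided exact permutation test cannot go below p = 0.1, which the Psmb7 and Psmb5 ratios reached for both genotypes (0.24 after Benjamini-Hochberg adjustment over 12 comparisons). The ratio of Psmb7 to Psmb10 also reached it between genotypes at 48 h, where the mean was 3.70 in WT and 3.36 in CKO. Sequence similarity within these pairs could let reads be shared, and how such reads were counted is not given in the sources used here.

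**Figure D5:**
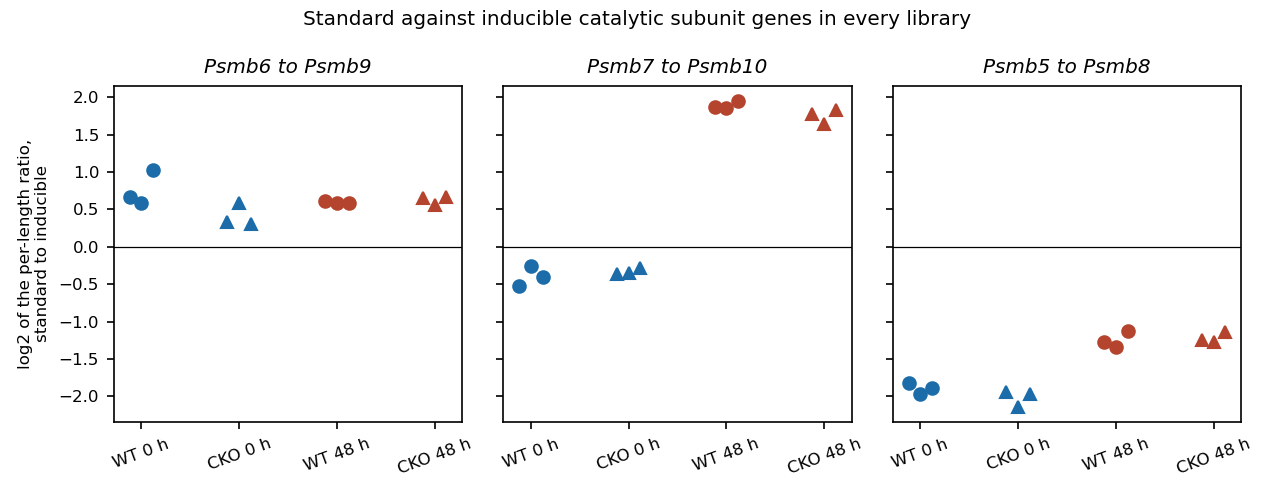
Log2 of the per-length ratio of each standard catalytic gene to its inducible counterpart (y axis) in each of the 12 libraries by group (x axis). Psmb7 to Psmb10 crosses 0 between 0 h and 48 h in both genotypes, Psmb5 to Psmb8 rises but stays below 0, and Psmb6 to Psmb9 overlaps between the times.

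The lists of other genes of the pathway held 43 genes, of which 42 were tested. In WT 31 were higher and 7 lower at 48 h and in CKO 31 and 9, with a median log2 change of 0.81 and 0.68. Over all 15935 genes tested, 6172 were called higher and 6237 lower in WT, and 6131 and 6246 in CKO. The counts of the single lists are to be read beside these. All 6 genes of core assembly and proteasome adaptors rose in both genotypes. Pomp, the chaperone that carries the beta ring to maturity, went from 47.7, 48.0 and 46.0 CPM to 194, 172 and 179 CPM in WT and from 41.7, 50.7 and 43.3 CPM to 189.7, 190.3 and 190.3 CPM in CKO. On the log2 scale the changes were 1.94 ± 0.07 and 2.07 ± 0.07 (edgeR adjusted p = 4.2e-15 and 1.94e-15). The alpha ring chaperones had WT and CKO log2 changes of 1.64 and 1.69 for Psmg1, 1.31 and 1.20 for Psmg2, 2.03 and 2.06 for Psmg3, and 1.00 and 0.55 for Psmg4. The adaptor Ecpas had 1.26 and 1.32. The CKO call of Psmg4, with an edgeR adjusted p of 0.0146, was lost without CKO 0 h replicate 3, at 0.36, and with a minimum of 50 counts in every library of a group, at 0.42.

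All 5 activators and inhibitors rose in both genotypes. The PA28 activator genes Psme1 and Psme2 had log2 changes of 0.79 ± 0.07 and 0.95 ± 0.08 in WT and 0.57 ± 0.07 and 0.63 ± 0.08 in CKO. Psme3, the nuclear relative, had 1.24 and 1.22, Psme4, the activator PA200, 0.58 and 0.58, and Psmf1, an inhibitor of the core in vitro, 0.90 and 0.87. Of 12 genes of proteins that bind the cap or shuttle substrates to it, 10 rose and 2 fell in both genotypes. The ubiquitin receptor Adrm1 rose by 0.53 and 0.60, the small lid subunit Sem1 by 0.81 and 0.63, the deubiquitinase Uchl5 by 2.34 and 2.25, and Txnl1 by 1.97 and 1.76. Those that fell were the shuttle factor Ubqln2, at -0.47 and -0.54, and Zfand5, at -0.25 and -0.30, both named after their values were seen.

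Nfe2l1, the transcription factor of subunit genes, went from 68.3, 59.8 and 61.5 CPM to 143, 144 and 144 CPM in WT and from 71.9, 64.5 and 64.2 CPM to 143, 139.8 and 151 CPM in CKO. The times did not overlap, and the log2 changes were 1.19 ± 0.07 and 1.11 ± 0.07 (edgeR adjusted p = 2.52e-12 and 7.22e-12). In the list of 7 genes of this control, of which Nfe2l3 was not tested, the calls were 2 higher and 2 lower for WT against 3 and 3 for CKO. Mafk, a small Maf partner, fell by 1.66 and 1.89, while Ngly1, which removes sugars from NFE2L1, had -0.48 and -0.66. Of 6 genes of ubiquitin supply, the calls were 3 higher and 2 lower for WT against 2 and 3 for CKO. Of all genes tested, 38.7% were called higher in WT and 38.5% in CKO, so neither list stands apart by its calls. The ubiquitin-activating enzymes Uba1 and Uba6 rose in both, by 0.82 and 0.96 in WT. Of the 4 genes of the p97 segregase, which pulls ubiquitylated proteins out of complexes, 3 rose in both genotypes, with 1.28 and 1.35 for Vcp and 0.65 and 0.73 for Nploc4.

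Between genotypes, 2 of the 42 pathway genes were called at 0 h, among them Ngly1 at 0.32 ± 0.07 (edgeR adjusted p = 0.00851). At 48 h 1 was called, Mafk at -0.25 ± 0.07 (edgeR adjusted p = 0.0366), and that call was lost under library totals and without any one of 5 of the 6 libraries at 48 h. None was called in the interaction. Over all genes tested, 7.48% were called at 0 h, 4.54% at 48 h and 1.38% in the interaction. The counts of called pathway genes therefore do not set these genes apart. Among the T-cell markers Cd8a was called lower in CKO at both times, with log2 differences of -0.19 and -0.36, and Cd8b1 at 48 h, at -0.26. At 0 h, 1 of the 6 natural killer markers, Klre1, and 1 of the 8 stress genes, Hsph1, were called higher in CKO, at 0.71 ± 0.17 and 0.44 ± 0.07 (edgeR adjusted p = 0.0147 and 0.000593). The B-cell sums at 0 h, 364.9 to 705.2 CPM in WT and 240.9 to 313.4 in CKO, did not overlap. Their 10 markers had a median log2 difference of -0.79, with 0 called. Erythroid and platelet sums, 20.7 to 36.9 and 11.0 to 18.9 CPM, did not overlap either, while natural killer and myeloid sums did. The part of these differences in the members' genotype values was not tested. Ngly1, Klre1 and Hsph1 were named after their values were seen.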

How the data were processed

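The deposited values are unscaled raw counts for each Ensembl gene ID. A stranded mRNA kit was used on TRIzol-extracted RNA, per the labels' protocols. The submitters' processing notes name the build GRCm39 and the tools cutadapt, HISAT2 2.2.1 and DESeq2, without roles. How reads were assigned to genes, with which annotation and strand setting, is not given in the sources used here, and reads of near-identical copies or antisense partners could have been counted at either gene. Named pseudogene copies of the members held at most 18 counts in all libraries together.

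Counts of the 15935 genes kept by filterByExpr were fitted with edgeR 4.0.16 in R 4.3.3 (quasi-likelihood, robust, TMM factors, 1 mean per group over all 12 libraries, 8 residual degrees of freedom). The two-sided p-values were adjusted over all genes tested by the Benjamini-Hochberg method, with calls made below an adjusted p of 0.05. IDs without a symbol held 0.249% of the counts. CPM are on TMM-scaled totals. Levels per kilobase used the principal transcript length of GRCm38 annotation, and no other coordinates of that build were used except those of the RefSeq promoters. All ranks per kilobase depend on that length, and ranks by the length of all annotated exons were not computed. Alternatives were other scalings, no filter, a stricter filter, DESeq2 1.42.0, a replicate block, separate fits of the groups compared, and leaving out libraries. The fit was checked on simulated counts with the same spread for every gene and few changed genes. These settings differ from the activation contrasts, in which many genes changed.

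The members and gene lists were chosen with earlier results of these data known. Values in every library are given for Psmb5, Psmb6 and Psmb7, for the genes with the largest and smallest WT log2 change in each role class, and for the 1 member with the smallest p in each genotype contrast. Outside the members, the rule named all inducible, activator and assembly genes, Nfe2l1, Adrm1, Sem1, Senp1 and the 2 genes of each other list with the smallest adjusted p in WT. Some pathway genes enter the counts of their lists but are not reported here by name. Python 3.11.15, pandas 2.3.3 and matplotlib 3.10.9 were used for tables and figures. Intervals of counts cover counting error only.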

Additional observations from a re-analysis of the deposited data

Results flagged for a closer look

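Psma8, which was left out of the members by its low counts, had 0 counts in all 6 libraries at 0 h and 23 counts summed over the 6 libraries at 48 h, 8 in WT and 15 in CKO. It was singled out because a signal appeared in data outside the comparisons. Single libraries at 48 h held 1 to 9 counts. No fold change is given, since every 0 h count was 0 and the lower 48 h counts lie within the 3 counts that a count of 0 in a library allows.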

How the results depend on the processing

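All 34 members were called higher in both genotypes under each alternative run, with every 1 of the 12 libraries left out in turn (34 to 34), and 0 were called in the genotype contrasts and the interaction (0 to 0). The exception was 1 member at 0 h, Psmd8 at 0.22 ± 0.06 (edgeR adjusted p = 0.0279), when WT replicate 1 of both times was left out. With all libraries the Psmd8 difference was 0.14 ± 0.08 (edgeR adjusted p = 0.362). With a minimum of 50 counts in every library of a group, the median log2 changes moved to 1.32 for core and 1.12 for cap genes in WT and to 1.24 and 1.11 in CKO; that fit tested fewer genes, 11671. Without single libraries these medians ranged from 1.38 to 1.49 and from 1.22 to 1.29 in WT, and from 1.34 to 1.39 and from 1.23 to 1.30 in CKO. The core minus cap median ranged from 0.15 to 0.27 in WT and from 0.08 to 0.14 in CKO. No called change turned its direction, but genotype values near 0 did: over the alternatives the 0 h core median, -0.01, ran from -0.06 to 0.05 (0.0069 with library totals), the 48 h cap median from -0.05 to 0.02 and the 48 h Psmb7 difference from -0.05 to 0.04. Outside the members, Psmb9 became called higher in CKO at 0 h without WT 48 h replicate 1 (0.20) and without WT replicate 1 of both times (0.27). Psme2 did so in these fits (0.23 and 0.28) and with no count filter (0.22), and its interaction was called with no count filter (-0.34) and with a replicate block within each genotype (-0.32).

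Replicate numbers were shared by the groups. Deviations of same-numbered libraries from their group means correlated across times by 0.162, 0.156 and 0.0623 in WT and by 0.0424, 0.0479 and 0.0562 in CKO. Every library correlated best with its own number across times. The labels do not say what the numbers mark, and the main fit did not take them as pairs. The fit with a replicate block called 34, 34, 0, 0 and 0 members in the 5 contrasts.

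Over all genes, the interaction called 97 higher and 123 lower. It called 223 and 353 without a count filter, 175 and 175 with a replicate block within each genotype, 195 and 212 with DESeq2, 141 and 227 without WT replicate 1 of both times, 61 and 77 without CKO 0 h replicate 3 and 43 and 72 without CKO 48 h replicate 3. The genotype contrast at 48 h called 375 higher and 349 lower, 551 and 653 without a filter, 236 and 183 without CKO 48 h replicate 1 and 204 and 141 without CKO 48 h replicate 3. At 0 h the 654 higher and 538 lower became 445 and 347 without WT 0 h replicate 2, 442 and 316 without CKO 0 h replicate 1 and 402 and 287 without CKO 0 h replicate 3. The depth limits Psma8 and Psmb11, which the main fit did not test. The fit without a count filter covered them, and its values for them are not reported here.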

Other observations

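The levels of the 17 cap genes lay closer together after stimulation. On the log2 scale of CPM per kilobase of principal transcript, the SD among them was 0.499 to 0.532 in the WT libraries at 0 h and 0.390 to 0.429 at 48 h, and 0.519 to 0.533 and 0.400 to 0.416 in CKO. With the length of all annotated exons instead, the SD was 0.700 to 0.734 and 0.645 to 0.689 in WT, and 0.697 to 0.725 and 0.666 to 0.676 in CKO, so the direction held and the size depended on the length used. Among the 14 core genes the SD in WT was 0.631 to 0.700 at 0 h and 0.610 to 0.640 at 48 h by principal length, which overlapped, and 0.566 to 0.624 and 0.634 to 0.673 by all exons, which did not. In CKO the core SD was higher at 48 h without overlap by either length, at 0.620 to 0.629 and then 0.631 to 0.652 by principal length, and at 0.560 to 0.590 and then 0.646 to 0.672 by all exons.

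The members took different places in the order of levels per kilobase of principal transcript at the 2 times. Psmd7 moved from rank 29 to 12 of 34 and Psmd14 from 18 to 10 in WT, while Psmd4 moved from 7 to 22 and Psmb1 from 6 to 17. In CKO the ranks were 29 and 12 for Psmd7, 19 and 8 for Psmd14, 8 and 22 for Psmd4 and 5 and 19 for Psmb1.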
